A study of Bos taurus with 16 samples.

Results

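S100A8, S100A9 and S100A12 are the calgranulins, small calcium-binding proteins that neutrophils hold in large amounts in their cytoplasm. The analysis follows these 3 transcripts in the whole blood of dairy cattle with high or low milk protein yield. Their rows were chosen by Ensembl identifier, which makes 3 of the 24616 identifiers counted: ENSBTAG00000012640 for S100A8, ENSBTAG00000006505 for S100A9 and ENSBTAG00000012638 for S100A12. The files carry no gene symbols, and the name table at hand matched 0 identifiers. The 3 names therefore rest on the list that chose the rows, and what could be checked was that the rows were abundant and moved together, as described below. Other genes share these traits, so they do not establish the names. No table of bovine promoters or proteins was at hand, so no sequence is shown.

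S100A8 and S100A9 pair into calprotectin, which binds zinc and manganese and starves microbes of these metals when neutrophils release it. S100A12, also called EN-RAGE, is a ligand of the receptor RAGE, and the calgranulins also signal through Toll-like receptor 4 on other white cells. In blood the transcripts come mainly from neutrophils and, at a lower level, from monocytes, which is why they are often read as a trace of granulocytes. In the RefSeq gene table of a later bovine assembly, ARS-UCD2.0, S100A8, S100A12 and S100A9 follow one another directly in this order, with S100A12 as the 1 gene between the outer pair.

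The study sequenced RNA from frozen whole blood of 16 cattle, 1 library per animal. The sample labels sort the animals by milk protein yield, 8 as high and 8 as low. Another trait, given only as an abbreviation, stands for the groups in the series' design text. Breed, age, lactation stage, health status, sampling date and blood cell counts are not in the labels, and that the libraries come from separate animals rests on them too. Libraries held 23727368 to 39793845 counts in genes. High-yield animal 4 stood apart: it had counts in 12197 genes, against 15494 to 16217 in the other 15 libraries. The spread, the correlations between the calgranulins and the comparison of yield groups are therefore given with and without it.

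Levels are given as CPM, counts scaled to a TMM-adjusted total of 1000000 per library. Because transcript lengths were not at hand, a level is compared between animals and never between genes. S100A8 ran from 61.3 to 2052 CPM, with a median of 184 CPM over the 16 animals. S100A9 had a median of 815 CPM and ran from 161 to 6840 CPM. S100A12 lay between 257 and 4494 CPM, with a median of 856 CPM. In each gene the highest animal was high-yield animal 4 and the lowest was high-yield animal 7. By read count among all identifiers, which favours long transcripts, S100A8 had a median rank of 1025.5 and ranks from 91 to 3142. The median rank of S100A9 was 156.5, with rank 10 in high-yield animal 4 and 1185 in high-yield animal 7. For S100A12 the median rank was 136.5, and it ranged from 29 to 652. Of the 24616 identifiers, the 3 rows were thus among the more abundant ones in every animal.

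Summed, the calgranulins took 1.06% of the gene counts in high-yield animal 4 and 0.0541% in high-yield animal 7. The other 14 animals lay between 0.121% and 0.261%. In these bulk libraries fewer cells of a type and less RNA per cell cannot be told apart, and the share of granulocytes was not measured.

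**Figure D1:**
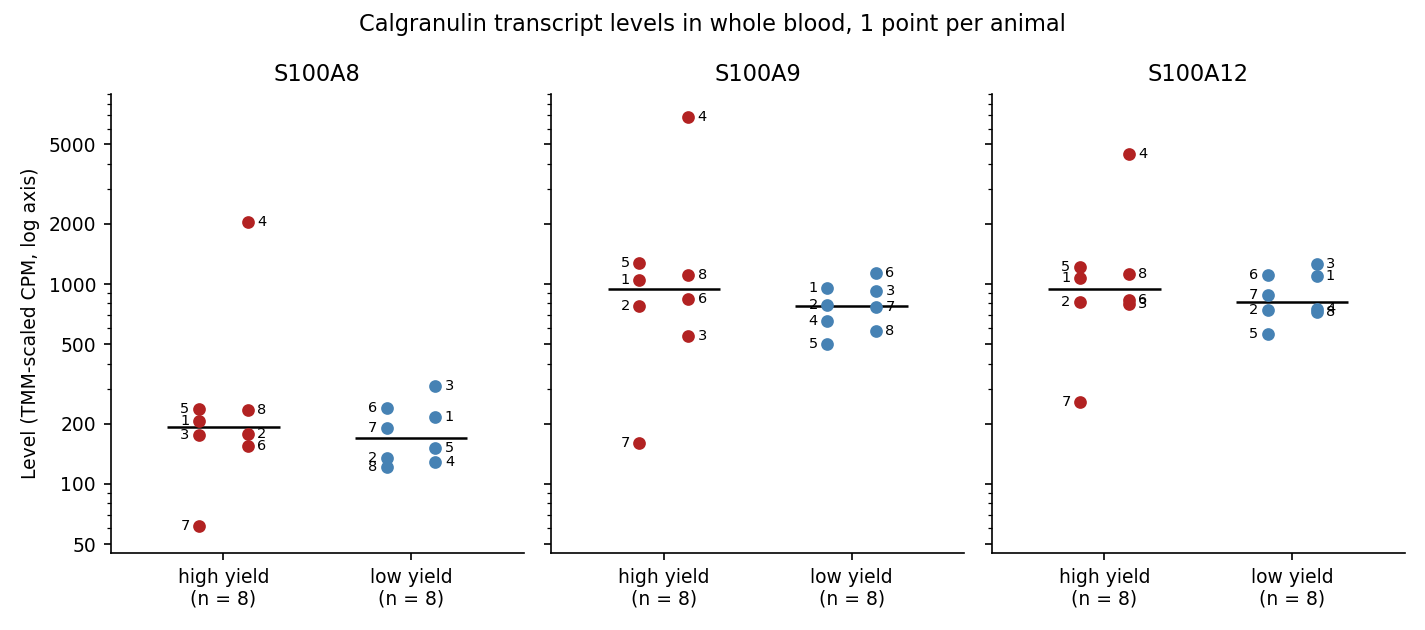
Level of each calgranulin transcript (TMM-scaled CPM, log axis) in the 8 high-yield (red) and 8 low-yield (blue) animals; each point is 1 animal with its number, and bars mark group medians. High-yield animal 4 is highest and high-yield animal 7 lowest in all 3 panels, and the other high-yield animals largely overlap the low-yield animals.

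The calgranulins varied more between animals than most transcripts did. The SD of log2(CPM + 1) over the 16 animals was 1.04 for S100A8, 1.07 for S100A9 and 0.82 for S100A12, against a median of 0.40 over the 13159 tested genes. The SD of S100A8 was above that of 97.7% of the tested genes, that of S100A9 above 98.0%, and that of S100A12 above 93.1%. Without high-yield animal 4 the SDs were 0.55, 0.72 and 0.57, with a median gene at 0.30, and they lay above those of 88.4%, 96.3% and 89.6% of genes. Counting error was small beside this spread. The lowest S100A8 count, 2033 in high-yield animal 7, has an exact 95% Poisson interval of 1946 to 2123, which covers counting error only.

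High-yield animal 4 held 11.5 times the median S100A8 level of the other 15 animals. For S100A9 it held 8.73 times and for S100A12 5.39 times their median. S100A8 in this animal was 6.67 times the next highest animal, low-yield animal 3 at 308 CPM. Of the 13159 tested genes, 16 lay at least as far above the median of the others as S100A8 did, itself included. For S100A9 this number was 25 and for S100A12 it was 108. The TMM factor of this library was 0.791, the lowest of the 16, and with library totals alone the same excesses were 8.71, 6.59 and 4.17 times. This animal had both the smallest number of genes with a count and the highest calgranulin levels. Whether the first had a part in the second was not tested.

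High-yield animal 7 lay at the other end. Its S100A8 level, 61.3 CPM, was 3.09 times below the median of the others, and its S100A12 level, 257 CPM, 3.42 times below. S100A9 was furthest down in this animal, at 161 CPM and 5.27 times below the median, and 14 of the tested genes, itself included, lay as far down or further. For S100A8 this number was 140 and for S100A12 it was 81. This library had counts in 16073 genes, within the range of the others. Its TMM factor, 1.13, and its share of alignments in no gene, 23.6%, were the highest of the 16. With library totals alone its levels were 0.333, 0.215 and 0.302 times the median of the others for S100A8, S100A9 and S100A12. With TMM they were 0.323, 0.190 and 0.292 times. Without these 2 animals the highest level was 2.53 times the lowest for S100A8, 2.53 times for S100A9 and 2.22 times for S100A12.

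The 3 transcripts rose and fell together from animal to animal. For S100A8 and S100A12 the Spearman rho of log2(CPM + 1) over the 16 animals was 0.96 (permutation p = 1e-05, the smallest that 100000 resamples can give, adjusted p = 3e-05 over the 3 pairs). Pearson's r for this pair was 0.96 (permutation p = 1e-05, adjusted p = 1e-05). S100A9 and S100A12 had a rho of 0.90 (permutation p = 3e-05, adjusted p = 4.5e-05) and an r of 0.98 (permutation p = 1e-05). S100A8 and S100A9 were the loosest pair, with a rho of 0.85 (permutation p = 0.00011, adjusted p = 0.00011) and an r of 0.95 (permutation p = 1e-05). Without high-yield animal 4 alone rho was 0.95 for S100A8 and S100A12, 0.875 for S100A9 and S100A12 and 0.82 for S100A8 and S100A9. The 2 animals farthest from the median were high-yield animals 4 and 7. Without them r was 0.88 for S100A8 and S100A12, 0.89 for S100A9 and S100A12 and 0.72 for S100A8 and S100A9, with permutation p of 5e-05, 2e-05 and 0.00398. Pooled over the remaining animals, each pair was thus still related without these 2. These values pool the sets of libraries described below, between which calgranulin levels differed by tests of each gene alone. Within the higher and lower set rho was 0.60 and 0.39 for S100A8 and S100A9 (exact permutation p = 0.132 and 0.396). It was 0.60 and 0.75 for S100A9 and S100A12, and 0.93 and 0.86 for S100A8 and S100A12.

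**Figure D2:**
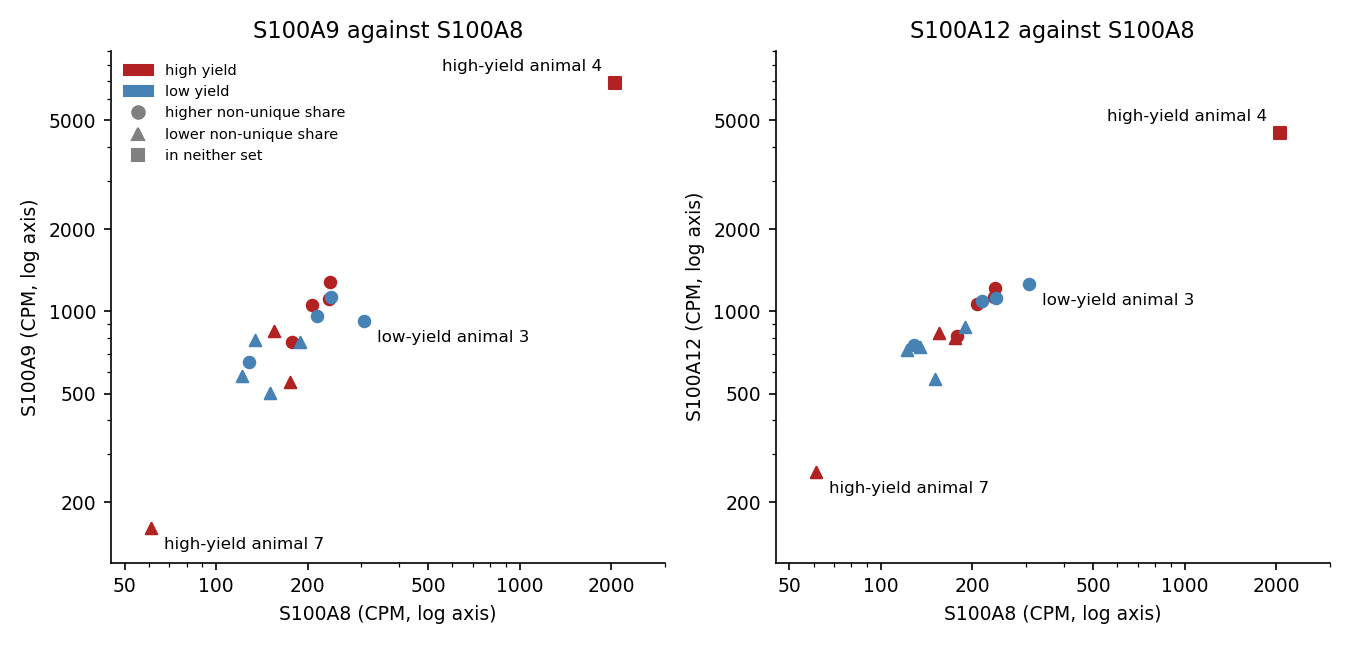
S100A9 (left) and S100A12 (right) against S100A8, in CPM on log axes; each point is 1 animal, coloured by yield group and shaped by its set of non-unique alignment share (square: high-yield animal 4, in neither set). Points follow a line in both panels, more tightly for S100A12 (rho 0.96) than for S100A9 (rho 0.85).

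Within the yield groups the pairs also moved together. In the 8 high-yield animals the order of animals by S100A9 was the order by S100A12 (rho 1, exact permutation p = 4.96e-05), and the pairs with S100A8 each had a rho of 0.93 (exact permutation p = 0.00223). Without high-yield animal 4, rho in this group was again 1 for S100A9 and S100A12, and 0.89 for each pair with S100A8. Among the 8 low-yield animals rho was 0.74 for S100A8 and S100A9 (exact permutation p = 0.0458), 0.83 for S100A8 and S100A12 (p = 0.0154) and 0.86 for S100A9 and S100A12 (p = 0.0107). Against the background of all genes, the partner of highest rho with S100A8 among 13158 genes was S100A12, and that with S100A12 was S100A8, in each case rank 1, also without high-yield animal 4 and with library totals alone. S100A9 ranked 6 among the partners of S100A12 and 23 among those of S100A8. Seen from S100A9, S100A12 ranked 29 and S100A8 ranked 99. Without high-yield animal 4, S100A9 ranked 47 for S100A8, and S100A8 ranked 269 for S100A9. These ranks describe the same libraries and carry no test.

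**Figure D3:**
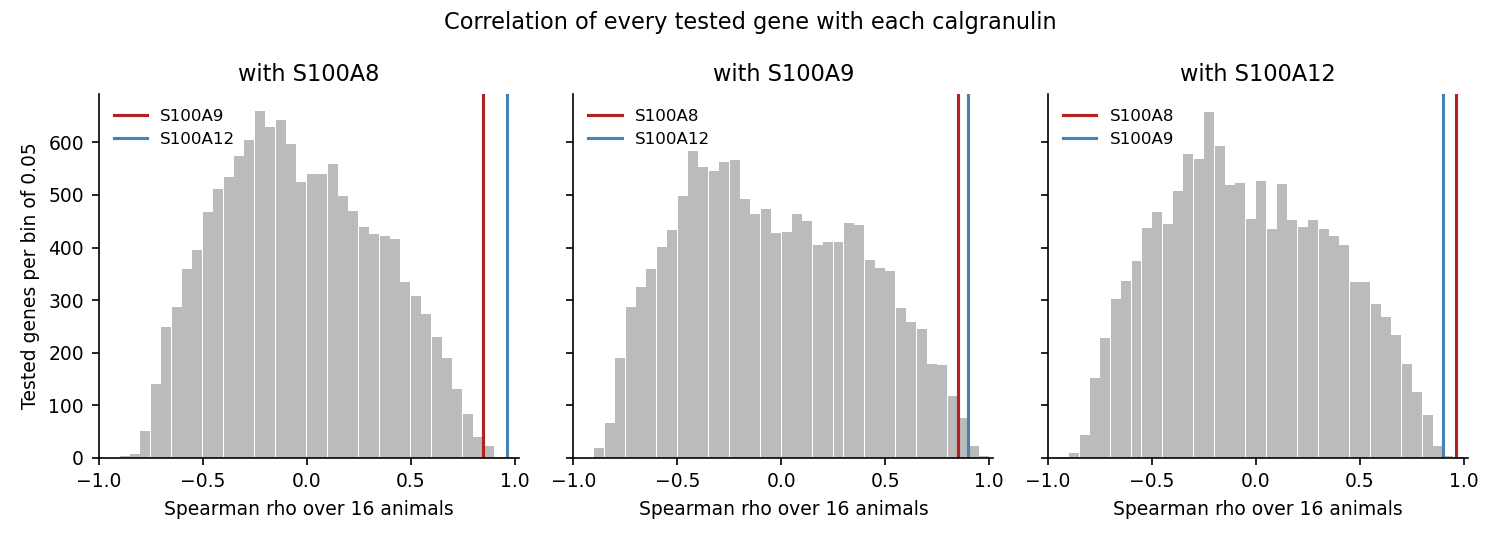
Number of tested genes by their Spearman rho with S100A8, S100A9 and S100A12 over 16 animals (bars, bins of 0.05); vertical lines mark the other 2 calgranulins. Each calgranulin lies in the far right tail for the others, with S100A12 at rank 1 for S100A8.

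A wider group of transcripts followed the same order of animals. Averaged over the 3 calgranulins, 396 of the other 13156 tested genes had a mean rho of at least 0.7 and 335 a mean rho of at most -0.7, or 3.01% and 2.55%. Among the genes with a mean of at least 10 CPM, ENSBTAG00000045861 had the highest mean rho, 0.92, and 0.90 without high-yield animal 4. It ran from 42.6 CPM in high-yield animal 7 to 161 CPM among the other 15 animals and stood at 186 CPM in high-yield animal 4. ENSBTAG00000020580 followed with a mean rho of 0.91, from 23.1 CPM in high-yield animal 7 to 211 CPM in high-yield animal 4. On the opposite side ENSBTAG00000020172 had a mean rho of -0.88, at 46.9 CPM in high-yield animal 4 against 77.1 to 107 CPM elsewhere. ENSBTAG00000048308 also had a mean rho of -0.88, at 1.18 CPM in that animal and 10.2 to 17.1 CPM elsewhere. No symbol could be matched to these 4 identifiers. The 16 animals of these correlations share their scaling and their 2 extreme animals, so the values are a description.

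Read ratios within a library do not depend on the scaling between libraries. S100A12 reads per S100A8 read ran from 3.74 to 5.95 in 15 animals and stood at 2.19 in high-yield animal 4. Outside that animal the log2 ratio of this pair had an SD of 0.19, against 0.55 for the level of S100A8 itself, so the pair kept its read ratio closely while its level moved. In those 15 animals the ratios with S100A9 varied more, with log2 SDs of 0.35 for S100A9 to S100A8 and 0.23 for S100A12 to S100A9. Over all 16 animals these SDs were 0.35 and 0.30, against 0.34 for S100A12 to S100A8. S100A9 reads per S100A8 read ran from 2.62 in high-yield animal 7 to 5.81 in low-yield animal 2. Further low values were 2.99 in low-yield animal 3, 3.16 in high-yield animal 3, 3.33 in high-yield animal 4 and 3.34 in low-yield animal 5. S100A12 reads per S100A9 read stood at 0.657 in high-yield animal 4 and ran from 0.945 to 1.60 elsewhere, with the highest values in high-yield animals 7 (1.60) and 3 (1.45). High-yield animal 4 thus held more S100A9 than S100A12 reads by the widest margin, and its excess was smallest in S100A12.

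**Figure D4:**
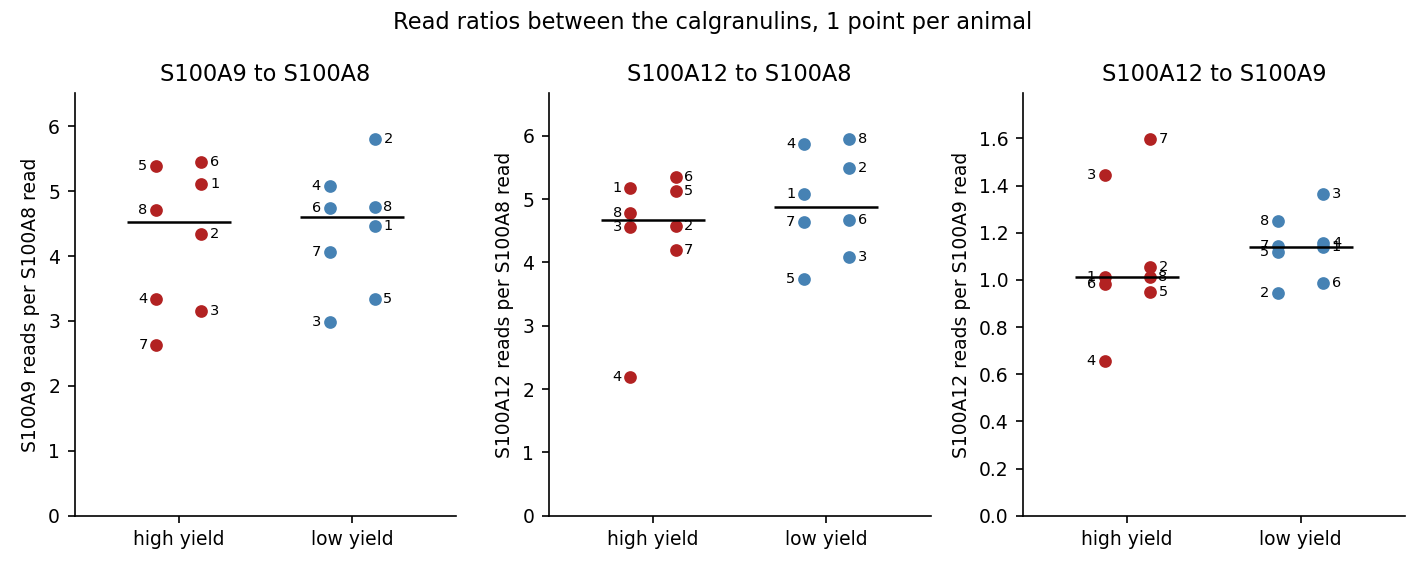
Reads of one calgranulin per read of another in each animal (linear axes from 0, points numbered by animal, bars at group medians), by yield group. High-yield animal 4 stands alone at 2.19 S100A12 reads per S100A8 read, below the 3.74 to 5.95 of the other 15 animals.

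The ratios did not separate the yield groups. For S100A9 to S100A8 the mean log2 ratio was 2.05 ± 0.40 with high yield and 2.11 ± 0.32 with low yield (± SD, n = 8 per group, exact permutation p = 0.729). The log2 ratio of S100A12 to S100A8 was 2.12 ± 0.42 and 2.29 ± 0.24 (exact permutation p = 0.415), and that of S100A12 to S100A9 was 0.077 ± 0.39 and 0.18 ± 0.17 (exact permutation p = 0.533). All 3 had an adjusted p of 0.729 from these two-sided exact tests. Without high-yield animal 4 the differences were -0.019, -0.022 and -0.0026, each with an adjusted p of 0.983 by the same exact test.

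The main comparison of the study is between high-yield and low-yield animals, and no calgranulin passed its test. The mean S100A8 level was 413 ± 665 CPM with high yield, against 186 ± 65.3 CPM with low yield (± SD, n = 8 per group). The lowest, median and highest high-yield animals had 61.3, 192 and 2052 CPM, and the low-yield animals 122, 170 and 308 CPM. The groups overlapped in all but the 2 extreme animals: 1 high-yield animal lay above the low-yield range and 1 below it. The log2 fold change, high minus low, was 1.15 (SE 0.564, 95% interval -0.035 to 2.33), with an unadjusted p of 0.0564 and an adjusted p of 0.986 in edgeR. Without high-yield animal 4 its sign changed, to -0.057 (SE 0.257, interval -0.60 to 0.49, adjusted p = 0.968 in edgeR).

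The mean of S100A9, the partner of S100A8 in calprotectin, was 1577 ± 2155 CPM with high yield and 787 ± 210 CPM with low yield (± SD, n = 8 per group). High-yield animals ran from 161 through a median of 950 to 6840 CPM, and low-yield animals from 504 through a median of 777 to 1132 CPM. Above the low-yield range lay high-yield animals 4 and 5, the latter at 1277 CPM, and below it high-yield animal 7. This was a log2 fold change of 1.0 with an SE of 0.521 (95% interval -0.093 to 2.1, unadjusted p = 0.0705, adjusted p = 0.986 in edgeR). It was 0.071 without high-yield animal 4 (SE 0.310, interval -0.58 to 0.72, adjusted p = 0.968 in edgeR).

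For S100A12, the RAGE ligand, the means were 1326 ± 1314 CPM with high yield and 891 ± 239 CPM with low yield (± SD, n = 8 per group). The lowest, median and highest values were 257, 950 and 4494 CPM against 565, 816 and 1255 CPM. Of the high-yield animals, 1 lay above and 1 below the low-yield range. This gave a log2 fold change of 0.57 with an SE of 0.401 (95% interval -0.27 to 1.42, unadjusted p = 0.170, adjusted p = 0.986 in edgeR). This too changed sign without high-yield animal 4, to -0.026 (SE 0.256, interval -0.57 to 0.52, adjusted p = 0.987 in edgeR).

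Of the 3 calgranulins, 0 passed an adjusted p below 0.05 in edgeR, and 0 were at an unadjusted p below 0.05. Over all 13159 tested genes the shares were 0% and 2.55%, and without high-yield animal 4 they were 0% and 3.82%. The count at an unadjusted p depended on single libraries. Without high-yield animal 7, S100A8 was at an unadjusted p of 0.0241 and S100A9 at 0.0196, and 7.62% of all genes were below 0.05. S100A8 lay between 0.0414 and 0.0476 without high-yield animal 1, 2, 3 or 6 or low-yield animal 3, and S100A9 at 0.0463 without high-yield animal 3. Over all genes, 295 of 13222 were below 0.05 without high-yield animal 1 and 342 of 13224 without high-yield animal 2. It was 470 of 13224 without high-yield animal 3, 318 of 13232 without high-yield animal 6 and 442 of 13238 without low-yield animal 3. DESeq2 and limma voom also called 0 of the 3 calgranulins. Exact two-sided permutation tests of each gene alone on log2(CPM + 1) gave p = 0.614 for S100A8, p = 0.598 for S100A9 and p = 0.639 for S100A12 (n = 8 each). These tests compared group means on that scale, which differed, high minus low, by 0.36, 0.30 and 0.20. Without high-yield animal 4 these exact tests gave 0.782, 0.846 and 0.789, at differences of -0.092, -0.11 and -0.11. As a fold, high over low, the intervals without this animal were 0.660 to 1.4 for S100A8, 0.668 to 1.65 for S100A9 and 0.675 to 1.43 for S100A12. With it they reached up to 5.04, 4.28 and 2.67.

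**Figure D5:**
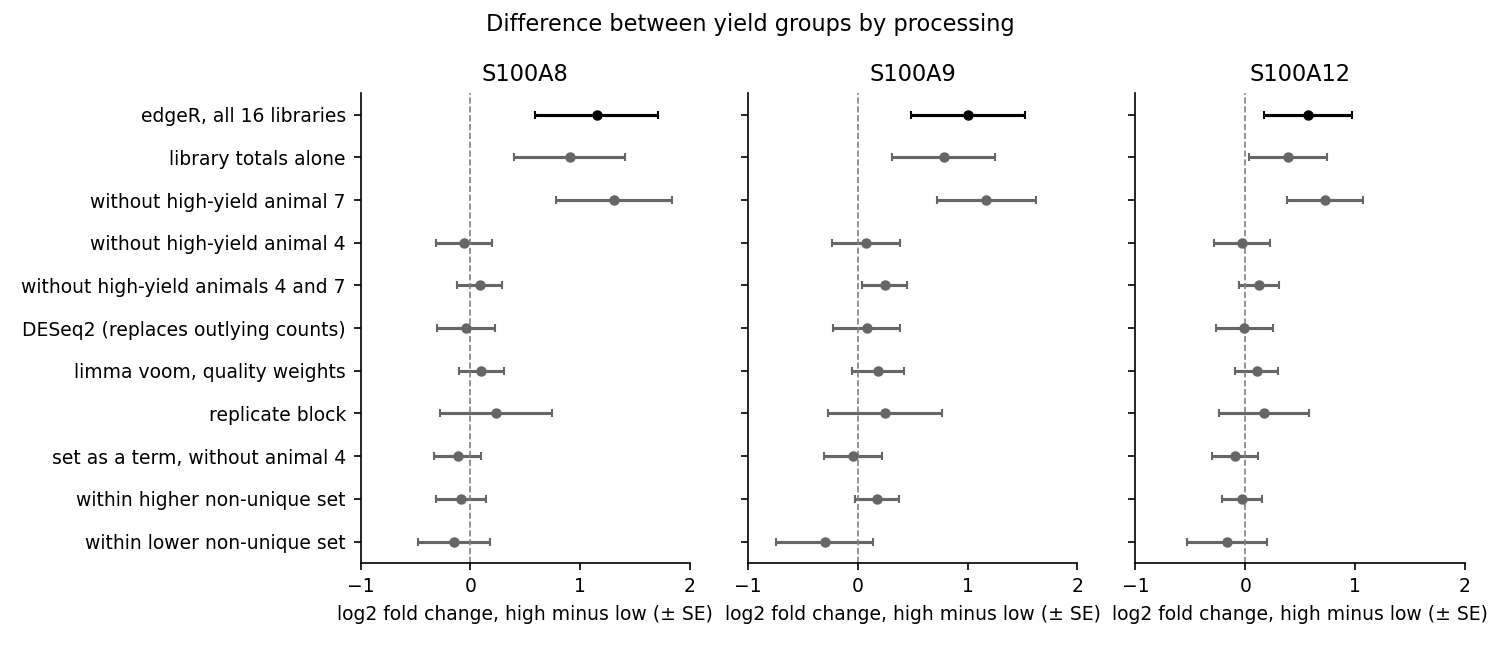
Log2 fold change of each calgranulin, high minus low yield, with its SE (bars), under 11 ways of processing; the dashed line marks no difference. Fits that include high-yield animal 4 at its full counts and weight and without a block lie at 0.39 to 1.31, and the others lie between -0.30 and 0.25.

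The libraries also fell into sets by the share of alignments that were not unique, a measure of the files that no label names. Leaving out high-yield animal 4 at 6.08%, the share was 7.83% to 8.81% in 8 libraries, 4 of each yield group, and 4.0% to 4.81% in 7 libraries, 3 high-yield and 4 low-yield. Calgranulin levels were higher in the set of higher share by tests of each gene alone, but not past the adjustment over all genes. S100A8 averaged 218 ± 52.0 CPM in the set of higher share and 141 ± 42.0 CPM in the other (SD, n = 8 and 7, exact permutation p = 0.00808). S100A9 averaged 985 ± 203 and 600 ± 234 CPM (exact permutation p = 0.00373), and S100A12 averaged 1055 ± 179 and 685 ± 214 CPM (exact permutation p = 0.0028). In each gene 6 of the 8 animals of the higher set lay above the highest animal of the lower set. With yield group in the model the log2 fold changes were 0.65 (SE 0.212), 0.73 (SE 0.269) and 0.64 (SE 0.213), and the adjusted p in edgeR was 0.233, 0.251 and 0.233. At an unadjusted p below 0.05 all 3 calgranulins passed in this model, as did 16% of the 13264 genes tested, and 0% passed at an adjusted p below 0.05. Within the sets the calgranulins did not follow the share, with rho from -0.12 to 0.31 and exact permutation p of at least 0.462. Whether a batch or the animals themselves set these libraries apart cannot be told apart here.

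Within the sets no yield difference of the calgranulins passed its test, and each SE was larger than the size of its estimate. The log2 fold change, high minus low, was -0.082 (SE 0.228) in the higher and -0.15 (SE 0.325) in the lower set for S100A8. For S100A9 it was 0.18 (SE 0.199) and -0.30 (SE 0.443). For S100A12 it was -0.025 (SE 0.182) and -0.17 (SE 0.363), and the adjusted p of all 3 was at least 0.691 in edgeR. The tie between S100A8 and S100A12 had a rho of 0.93 in the higher set (exact permutation p = 0.00223, adjusted p = 0.00669) and of 0.86 in the lower set (exact permutation p = 0.0238, adjusted p = 0.0714). Pearson's r for this pair was 0.93 and 0.93 (adjusted p = 0.000298 and 0.0399 from exact permutation). For S100A9 the rho with S100A8 was 0.60 and 0.39 (exact permutation p = 0.132 and 0.396), and with S100A12 0.60 and 0.75 (exact permutation p = 0.132 and 0.0663). Its r was higher: 0.71 and 0.88 with S100A8 (adjusted p = 0.0495 and 0.0542 from exact permutation) and 0.85 and 0.96 with S100A12 (adjusted p = 0.0187 and 0.0203 from exact permutation). High-yield animal 7, at 61.3 CPM for S100A8 and 161 CPM for S100A9, is in the lower set and enters its r. The other animals of that set ran from 122 to 190 CPM for S100A8 and from 504 to 847 CPM for S100A9. The coefficients of that set without this animal were not computed.

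No relation of the calgranulins with library depth passed its test. The Spearman coefficient with the total count was 0.31 for S100A8, 0.44 for S100A9 and 0.20 for S100A12 (permutation p = 0.250, 0.0947 and 0.463, adjusted p = 0.45, 0.213 and 0.695 over 9 relations). With the number of genes with a count, rho was -0.029, 0.11 and -0.076 (adjusted permutation p of at least 0.875). Pearson's r for these was -0.83, -0.73 and -0.73 (permutation p = 0.0391, 0.0394 and 0.0321). It rested on high-yield animal 4, without which it was 0.080, 0.082 and 0.0044, and it was -0.063, 0.051 and -0.049 without the 2 animals farthest from the median. The relations with the non-unique share, also among the 9, had rho of 0.55, 0.58 and 0.62 (adjusted permutation p = 0.0897 each). Without high-yield animal 4 their Pearson's r was 0.63, 0.62 and 0.65 (adjusted permutation p = 0.0207, 0.0117 and 0.0117). That share falls into 2 sets, and within them the calgranulins did not follow it, as given above.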

How the data were processed

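Whole-blood RNA was sequenced from 16 cattle, and the authors deposited raw counts per Ensembl gene identifier. TopHat2 2.1.1, SAMtools 1.4, HTSeq and the assembly UMD3.1 were used, per the submitters' processing notes. For HTSeq, neither version nor strand setting is given in the sources used here, nor is the annotation release. The 5 entries for alignments not counted to a gene were kept out of totals. They held 18.3% to 23.6% (no gene), 0.556% to 0.887% (ambiguous) and 4.0% to 8.81% (not unique) of alignments. Reads that fit several places were thus not counted, which lowers genes with close copies.

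Genes were tested with edgeR 4.0.16 (R 4.3.3): quasi-likelihood F-test, TMM factors, filterByExpr (minimum count 10, minimum total 15), yield group as factor and Benjamini-Hochberg adjustment over all tested genes. All 3 calgranulins passed the filter. The pseudocount on the log2 scale was 1. Alternatives used DESeq2 1.42.0, limma 3.58.1, other scalings and filters, a replicate block, and leaving out libraries. The edgeR and correlation code was tested on simulated data. No pair of libraries agreed within sampling noise (lowest chi-square per degree of freedom 31.7 over 120 pairs).

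The calgranulins and the tests were chosen with earlier results of these data known. Besides them, the 2 genes of highest and the 2 of lowest mean rho at a mean of at least 10 CPM were named by rule. Lists of receptors, signalling genes and blood cell markers, and promoter motifs, were not scored, since 0 of 24616 identifiers matched a symbol and no promoters were at hand.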

Additional observations from a re-analysis of the deposited data

Results flagged for a closer look

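The highest and lowest animal of each yield group were compared with the rest of the group for the levels of the 3 calgranulins (on the log2 scale) and for their 3 read ratios. Of these 12 comparisons, 2 set an animal far apart, where chance alone does so in about 1 of 20. The ratios are built from the same counts as the levels, so the comparisons are not independent, and both flags share 1 S100A8 count. S100A8 in high-yield animal 4, at 2052 CPM, was one: its gap to the next animal was 0.617 of the range of the high-yield group, above the limit of 0.526 for 8 animals. The other was the ratio of S100A12 to S100A8 in the same animal, at 2.19 reads per read, with a gap of 0.727 of the range. The levels of S100A9 and S100A12 in this animal did not pass the limit, because high-yield animal 7 widens the range at the lower end.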

How the results depend on the processing

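No alternative gave a calgranulin an adjusted p below 0.05 between yield groups (lowest 0.611, in edgeR without high-yield animals 4 and 7). Other scalings, other filters and robust dispersion kept the direction, with log2 fold changes of 0.90 to 1.18 for S100A8, 0.78 to 1.03 for S100A9 and 0.39 to 0.60 for S100A12. The direction of S100A8 and S100A12 in edgeR depended on high-yield animal 4, and the size of all 3 differences did. Leaving out 1 library at a time gave log2 fold changes of -0.057 to 1.31 for S100A8, 0.071 to 1.17 for S100A9 and -0.026 to 0.73 for S100A12, the lowest value of each being without animal 4. With all the others the lowest were 1.08, 0.93 and 0.50. DESeq2, which replaced the S100A8 count of that animal, 50590, by 4646 and treated the other calgranulins likewise, gave -0.041 for S100A8, 0.081 for S100A9 and -0.0088 for S100A12. With a term for the non-unique set and animal 4 left out, values were -0.12, -0.043 and -0.092. Within the higher set they were -0.082, 0.18 and -0.025, and within the lower set -0.15, -0.30 and -0.17. Added after seeing the data and without animal 4, DESeq2 gave -0.047, 0.081 and -0.015, library totals alone -0.11, 0.013 and -0.082, and limma voom 0.091, 0.17 and 0.097. Without animals 4 and 7 edgeR gave 0.087, 0.24 and 0.13. With all 16 libraries limma voom gave animal 4 a weight of 0.0395 and log2 fold changes of 0.10, 0.18 and 0.10.

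The replicate block gave 0.24, 0.25 and 0.17, each at an adjusted p of 1 in edgeR. The shared numbers did not pair the animals: 1 of 8 same-numbered pairs had a correlation of deviations over 0.1, and 0 libraries correlated best with their own number. The count of called genes was 0 in edgeR, 3 in DESeq2, also without animal 4, 2 in limma voom, 0 there without animal 4, and 0 to 1 with 1 library left out, the 1 being without high-yield animal 1 or 3.

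The correlations kept their sign throughout. By rho they missed an adjusted p of 0.05 within the sets: 0.60 and 0.39 for S100A8 and S100A9, 0.60 and 0.75 for S100A9 and S100A12 (higher and lower set), and 0.86 for S100A8 and S100A12 (lower set). The S100A9 to S100A8 ratio differed by -0.14 to 0.030 with 1 library left out, the positive value being without high-yield animal 7. Without animal 4, rho with the number of genes with a count was 0.18 for S100A8 and 0.12 for S100A12. Genes with a mean rho of at least 0.7 numbered 246 with library totals alone and 529 without animal 4, and those of at most -0.7 numbered 194 without animal 4 and 450 with library totals alone. The cause of these shifts was not tested.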
